A study of Mus musculus with 7 samples.

Results

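Short lamin-associated domains (LADs) are described here: the 310 domains under 200 kb on the 19 autosomes of mouse embryonic fibroblasts. LADs are stretches of chromatin in contact with the lamina, a mesh of lamin proteins lining the inside of the nuclear envelope. The members were chosen by length alone, as end minus start in the deposited list. They were 310 of 1437 LADs in the whole list, and 310 of the 1128 autosomal LADs (27.5%). They covered 32.8 Mb, which was 2.79% of the bases in autosomal LADs.

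LADs were mapped by CUT&RUN, in which a nuclease tethered to an antibody cuts and releases the DNA around the antibody's target. The series held 7 libraries of iMEF, mouse embryonic fibroblast lines that were derived independently of one another from animals of 1 colony: 2 of Lamin B1, 2 of the IgG control, 2 of H3K9me2 (antibodies ab1220 and 39041, 1 library each) and 1 of H3K14ac. Each reaction used 500000 cells and a digestion of 2 h, and the labels list no treatment. The values below come from 1 merged list of Lamin B1 domains on build mm10, wild type by its name alone, so no value has a replicate error, the read depth is unknown, and no difference between LAD classes was tested. In a bulk assay of this kind, contact in few cells and weak contact in all cells cannot be told apart.

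LADs hold mostly silent chromatin. They are typically poor in genes, rich in A and T bases, and marked by methylation of H3K9, and genes that leave the lamina during differentiation often become active or ready for activation. Olfactory and vomeronasal receptor genes, tissue-restricted genes and the bodies of very long neuronal genes are well-known contents of LADs in many cell types, whereas promoters of broadly used genes mostly lie between LADs.

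Promoter and microRNA sequences in the members show what kinds of gene they hold. The 250 bases before the start of 3 genes, from RefSeq on GRCm38.p6 (the same build as mm10), are printed 5′ to 3′ on the gene's strand to show the range of promoter types. Capitals mark CG dinucleotides. Foxa2, a forkhead factor of early endoderm and its organs, has 20 CG in these bases and a GC content of 67.2% (chr2:148045949-148046198, minus strand). Myh4, a fast myosin heavy chain of skeletal muscle, has 1 CG and a GC content of 42.0% (chr11:67237562-67237811, plus strand). Olfr1389, an olfactory receptor gene, has 1 CG and a GC content of 38.4% (chr11:49430177-49430426, plus strand). These 3 were chosen after their values were seen.
Foxa2: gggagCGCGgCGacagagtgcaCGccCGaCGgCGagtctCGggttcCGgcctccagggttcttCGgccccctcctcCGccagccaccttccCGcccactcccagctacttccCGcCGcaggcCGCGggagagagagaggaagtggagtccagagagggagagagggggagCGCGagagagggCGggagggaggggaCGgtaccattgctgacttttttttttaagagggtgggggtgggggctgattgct
Myh4: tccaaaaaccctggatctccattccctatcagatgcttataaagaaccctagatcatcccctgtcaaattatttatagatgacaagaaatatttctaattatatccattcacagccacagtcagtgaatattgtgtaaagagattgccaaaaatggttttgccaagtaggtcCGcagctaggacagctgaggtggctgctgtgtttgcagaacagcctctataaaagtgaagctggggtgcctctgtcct
Olfr1389: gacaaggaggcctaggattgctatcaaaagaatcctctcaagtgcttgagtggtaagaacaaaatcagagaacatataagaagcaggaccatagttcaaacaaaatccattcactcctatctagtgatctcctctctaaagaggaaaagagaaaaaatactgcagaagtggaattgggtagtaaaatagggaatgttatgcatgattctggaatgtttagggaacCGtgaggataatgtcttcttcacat

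Members held 10 of the 209 microRNA genes in autosomal LADs, in 5 members. This was 4.79%, where the share of protein-coding genes was 3.62%, and all 10 matched the RefSeq table, with 16 mature sequences. No seed (bases 2 to 8, in capitals) occurred more than once among the 16. The first 8 lines below follow position along the chromosomes, and the other lines were added after the values were seen, because they complete the group at 1 border on chromosome 12.
miR-6354: uGCCCUGGggaucaggucucu
miR-12179-5p: uCUCUGUCcuccaguucug
miR-466q: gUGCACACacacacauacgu
miR-6379: uCCCUGGAguuuuacagcuaga
miR-541-5p: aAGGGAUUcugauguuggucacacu
miR-541-3p: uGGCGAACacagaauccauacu
miR-409-5p: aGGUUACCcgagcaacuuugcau
miR-409-3p: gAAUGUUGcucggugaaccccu
miR-412-5p: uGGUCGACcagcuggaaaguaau
miR-412-3p: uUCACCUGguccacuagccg
miR-369-5p: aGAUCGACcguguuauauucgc
miR-369-3p: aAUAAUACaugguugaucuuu
miR-410-5p: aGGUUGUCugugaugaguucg
miR-410-3p: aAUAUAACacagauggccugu

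The last 10 of these come from Mir541, Mir409, Mir412, Mir369 and Mir410, which belong to the imprinted Dlk1-Dio3 region, where the maternal copy gives rise to Meg3, Rian, Mirg and a large microRNA cluster. The member there, chr12:109742397-109929896, was 187.5 kb long and 362.5 kb from the nearest LAD. Its left border fell inside the lncRNA gene Mirg (109734981 to 109749458) and inside the microRNA cluster. Mir541 started 12 bp inside that border, and the 5 genes started within 1.39 kb of one another, which is less than the 2.5 kb step of the borders. Their place inside the member therefore lies within the resolution of the list. Mir3072 started 5.48 kb inside. The gap before the border was 362.5 kb wide, so the 300 kb before it lay wholly outside LADs. That stretch held 54 microRNA genes, of which 0 could lie in a LAD. Rian (80.7 kb away), Meg3 (171 kb) and Dlk1 (279 kb) lay in the same gap. Dio3 (349 kb) lay in the gap on the other side, which was 3292 kb wide.

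The lengths, which chose the members and are given as a description only, ran from 17.5 kb to just under 200 kb, with a median of 92.5 kb and quartiles of 70.6 and 142.5 kb. Borders moved in steps of 2.5 kb, since each of the 310 lengths was a whole number of such steps to within 1 bp. Of the members, 17 were at most 50 kb long, 160 (51.6%) were over 50 and up to 100 kb, 71 over 100 and up to 150 kb, and 62 over 150 and up to 200 kb. The next classes of the same width held 56 (to 250 kb), 39 (to 300 kb), 44 (to 350 kb) and 38 LADs (to 400 kb), so the counts per 50 kb were highest between 50 and 100 kb and showed no break at the threshold. Just inside the threshold lay chr16:90469382-90669380, chr3:46700963-46900961 and chr11:90407888-90607886, each of 199999 bp. Just outside lay chr18:54163846-54366344 (202499 bp), chr1:68794784-68999782 (204999 bp) and chr16:66669457-66876955 (207499 bp). The shortest members were chr1:130809587-130827086 (17.5 kb, no protein-coding gene midpoint), chr12:18647686-18670184 (22.5 kb, with the gene model LOC115488002) and chr3:119818232-119843230 (25 kb).

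**Figure D1:**
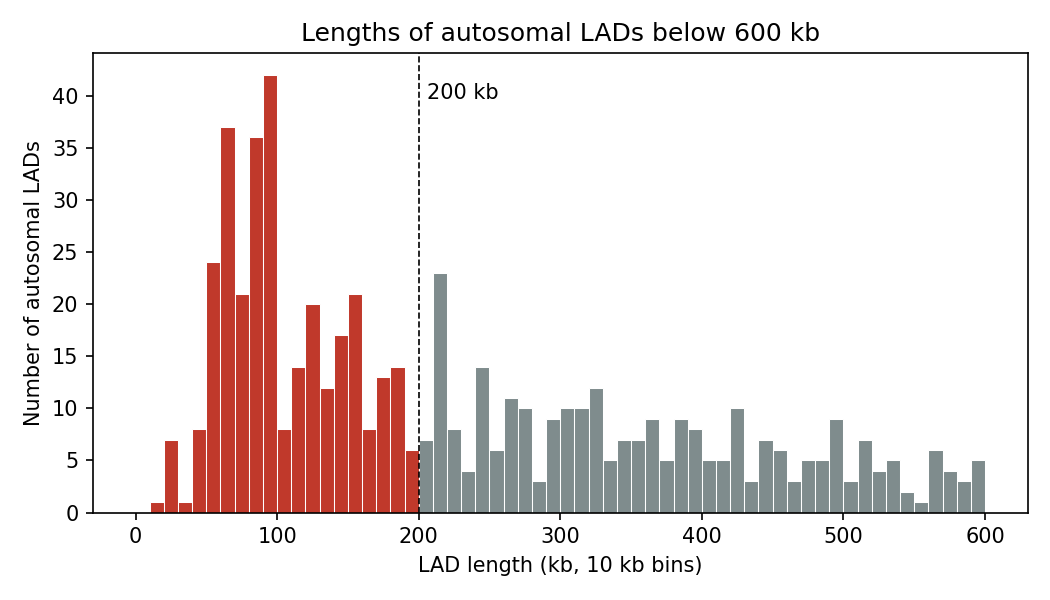
Number of autosomal LADs (vertical axis) by length in kb (horizontal axis, bins of 10 kb, up to 600 kb), members in red and longer LADs in grey, with a dashed line at 200 kb. The 160 members between 50 and 100 kb form the tallest part, and separate peaks stand near 60 and 90 kb.

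Most short LADs lay close to another LAD. The median distance to the nearest LAD was 140.0 kb (quartiles 92.5 and 246.9 kb, range 52.5 kb to 7360 kb), against 132.5 kb for LADs of 200 to 500 kb and 156.2 kb for all LADs of 200 kb or more. A neighbour stood within 250 kb of 233 members (75.2%, against 74.0% of LADs of 200 to 500 kb and 67.0% of all longer LADs) and within 100 kb of 100 members (32.3%, against 35.3% and 31.8% in the same 2 sets). The farther of the 2 gaps had a median of 568.7 kb, against 660.0 kb beside LADs of 200 to 500 kb and 797.5 kb beside all longer LADs. It exceeded 1 Mb in 127 members (41.0%), near the background of 44.1% over all autosomal LADs. Both gaps were within 250 kb in 84 members (27.1%, against 27.7% of LADs of 200 to 500 kb and 22.7% of all longer LADs). In these distances the members were close to LADs of 200 to 500 kb. Only 19 members (6.13%) were more than 1 Mb from any LAD, where 8.16% of all autosomal LADs were, so the members' share was on the low side of the background. Gaps come from the same domain call as the lengths, so these values describe the list.

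Among the closest gaps, a nearest gap of at most 80 kb occurred in 23 members (7.42%), against 40 LADs of 200 to 500 kb (17.0%) and 121 of all longer LADs (14.8%). A nearest gap over 80 and up to 100 kb occurred in 77 members (24.8%), against 43 (18.3%) and 139 (17.0%) in the same 2 sets. These edges were chosen after the values were seen.

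**Figure D2:**
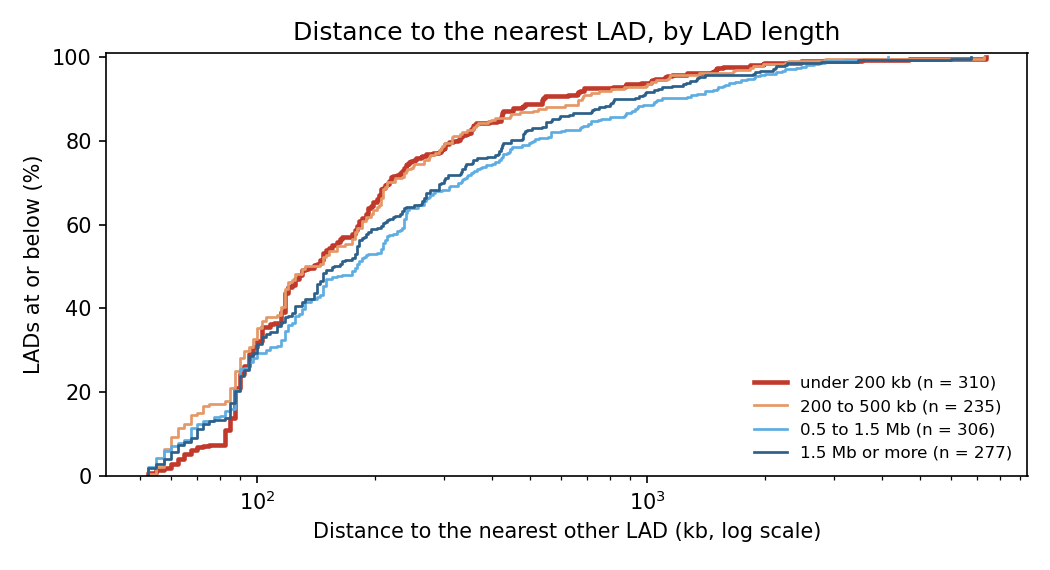
Distance from each autosomal LAD to the nearest other LAD (kb, logarithmic axis) by length class. Each line gives the percentage of a class at or below a distance; the members' line is lowest at 80 kb (7.42%) and reaches 75.2% at 250 kb.

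The neighbours of short LADs were of the same kinds as those of LADs in general. Of 613 neighbours (7 members stand at the end of a chromosome's list and have 1), 162 were short LADs (26.4%, against 27.6% over all autosomal LADs) and 151 were LADs of at least 1.5 Mb (24.6% against 24.4%). Beside LADs of 200 to 500 kb these shares were 31.7% and 21.1%. At least 1 neighbour of 1.5 Mb or more stood beside 131 members (42.3%), where the background over all autosomal LADs was 42.1%, so this share is no feature of the members. It was 37.9% for LADs of 200 to 500 kb. Between a pair of LADs of at least 1.5 Mb lay 20 members of 310 and 67 of all 1128 autosomal LADs (background 5.94%), again a like share. Of the 235 LADs of 200 to 500 kb, 8 lay so. The nearest LAD was at least 500 kb long for 142 members (45.8%, against 45.1% of LADs of 200 to 500 kb and 51.0% of all longer LADs).

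Members followed one another without a longer LAD between them in 60 runs, which held 141 members: 43 runs of 2, 13 of 3 and 4 of 4, beside 169 members standing alone. Of the 4 runs of 4, the widest, chr6:112286792-116894277, spread its members over 4607 kb with 71 protein-coding genes, among them Pparg, the master factor of fat cells, Cav3 of muscle membranes, and Oxtr, the oxytocin receptor. None of these 3 had its midpoint in a member, whereas the receptors Olfr211 to Olfr215 had. A run on chromosome 15 (42761047 to 44563540, 1802 kb) held 4 members and 8 genes, including Rspo2, a Wnt pathway agonist, and Trhr, the receptor of thyrotropin-releasing hormone. The run chr4:64118221-65070717 (952.5 kb) held 0 protein-coding genes, and 410.0 kb of it lay in its 4 members. The fourth, chr14:77181078-78086074 (905.0 kb), held Enox1, Dnajc15, Epsti1 and Fam216b, with 2 of its members inside Enox1.

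The surroundings of short LADs had a lower median gene density than those of longer LADs. In the 1 Mb on each side of a member, the member left out, the median density was 5.50 protein-coding genes per Mb (quartiles 3.50 and 8.50, range 0 to 43.0). It was 6.50 around LADs of 200 to 500 kb, 6.75 around those of 0.5 to 1.5 Mb, 7.50 around those of at least 1.5 Mb, and 7 around all LADs of 200 kb or more. The medians of members were below those of longer LADs on 16 of 19 chromosomes and above them on 3. Over chromosomes the mean of the medians was 6.16 ± 2.25 genes per Mb for members and 6.89 ± 1.34 for longer LADs (SD, n = 19 chromosomes, which are not replicates). The means differed by less than either SD, but these SDs do not measure the spread of the difference within a chromosome. Within 2 Mb on each side the medians differed by -0.750 genes per Mb (members minus longer LADs), in place of -1.50 within 1 Mb. The share of the surroundings that lay in other LADs was much the same: a median of 41.0% for members and 39.7% for longer LADs. The part of the surroundings outside LADs held 9.16 genes per Mb around members, 9.92 around LADs of 200 to 500 kb and 11.5 around all longer LADs. The part inside other LADs held 4.01, 4.42 and 4.34.

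Short LADs were set against the range of gene densities along the autosomes. Windows of 2 Mb along the autosomes had density quartiles of 2.5, 5.5 and 11 genes per Mb. At or below the lowest quartile lay the surroundings of 54 members (17.4%), in the next range 116 (37.4%), in the next 85 (27.4%) and above the highest quartile 55 (17.7%). LADs of 200 to 500 kb fell into these ranges at 14.9%, 31.5%, 37.9% and 15.7%, and all longer LADs at 10.9%, 29.6%, 37.9% and 21.6%. The windows themselves held 26.2% of their number in the poorest range, above the share of each of these LAD sets. No protein-coding gene had its midpoint in the surroundings of 8 members, against 2 of the 818 longer LADs and a background of 0.887% over all autosomal LADs. These surroundings are not all free of genes, since Pcdh9 and Rbfox1 each hold 1 of these members and reach past it. Members close to one another also share surroundings, so these are not all separate places.

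Gene density changed little at the border of a short LAD. It was counted inward to the middle of each LAD and outward to the middle of each gap, so that outside bases lay in no LAD. In members it was 5.50 genes per Mb in the outermost 25 kb, 4.68 from 25 to 50 kb and 5.44 from 50 to 100 kb inside. Outside it was 5.09 in the first 25 kb, 7.41 from 25 to 50 kb, 8.25 from 50 to 100 kb, 9.07 from 100 to 200 kb, 11 from 200 to 400 kb and 11.6 from 400 to 800 kb. For longer LADs the outermost 25 kb inside held 5.94 genes per Mb, the first 25 kb outside 7.08, and the stretch from 25 to 50 kb outside already 11.1. Thus the density outside a member rose step by step over some 400 kb, whereas outside a longer LAD it was between 12.8 and 13.3 from 50 kb on.

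**Figure D3:**
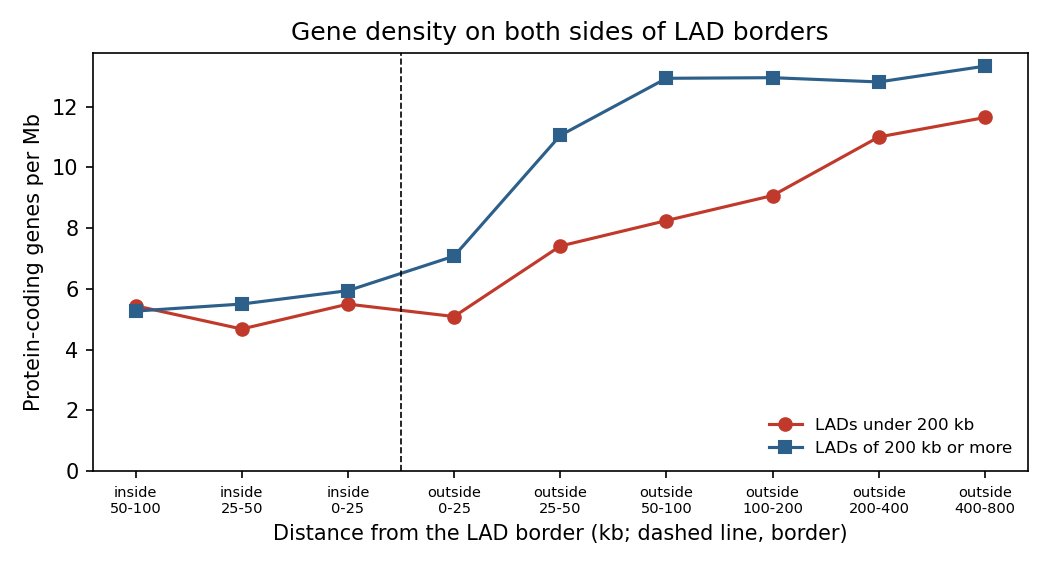
Protein-coding genes per Mb (by gene midpoint) against the distance from the LAD border in kb, inside and outside, for members and for LADs of 200 kb or more. Inside, both curves lie between 4.68 and 5.94 genes per Mb; outside, the members' curve passes 9.07 at 100 to 200 kb, where the curve of longer LADs is at 13.0.

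Inside the members lay the midpoints of 171 protein-coding genes, or 5.21 per Mb. The density fell from class to class of length: 4.76 per Mb in LADs of 200 to 500 kb, 4.62 from 0.5 to 1.5 Mb and 3.67 at 1.5 Mb or more. Over chromosomes it was 5.26 ± 3.34 per Mb in members, 3.92 ± 1.79 in longer LADs and 12.8 ± 3.33 outside LADs (SD, n = 19 chromosomes). Members were above longer LADs on 13 of 19 chromosomes and below the bases outside LADs on 19 of 19. The order of members and longer LADs depends on how genes are counted: by genes lying whole inside, members held 2.71 per Mb and longer LADs 3.69, a count that a short interval lowers by construction. It depends on the distance from the border too: within 50 kb inside it, as given above, members were not above longer LADs.

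No protein-coding gene had its midpoint in 191 members (61.6%), against a background of 30.9% over all autosomal LADs, which are longer and so have more room for a gene. Of the others, 88 held 1 gene, 17 held 2 and 14 held 3 or more. Intervals of like length give a closer comparison. Stretches of 100 kb cut from longer LADs had no gene in 77.3% and 3.85 genes per Mb, stretches of 100 kb outside LADs had none in 35.3% and 13.1 per Mb, and the 418 gaps between LADs that were under 200 kb (median 105.0 kb) had none in 44.5% and 8.86 per Mb. By these values short LADs stood between the inside of longer LADs and the short gaps. The stretches came from any depth of a longer LAD, whereas all bases of a member lie within 100 kb of a border. At 0 to 25, 25 to 50 and 50 to 100 kb inside the border, longer LADs held 5.94, 5.50 and 5.27 genes per Mb. Members held 5.50, 4.68 and 5.44 there, so they were not richer than the outer 50 kb of longer LADs.

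By the way genes lay on them, the members fell into 4 kinds, a member inside 1 gene being counted there even if it also held a smaller gene. No protein-coding gene overlapped 131 of them (42.3%, background 21.5%), and 53 (17.1%, background 4.88%) overlapped no annotated gene of any kind. A further 72 (23.2%, background 8.33%) lay whole inside 1 protein-coding gene, 55 (17.7%, against 54.6% of all autosomal LADs) held at least 1 whole gene without lying inside another, and 52 (16.8% against 15.6%) crossed the end of a gene only. The backgrounds again depend on LAD length. Among intervals of like length, the share inside 1 gene was 17.0% for stretches of longer LADs, 13% for stretches outside LADs and 11% for the 418 short gaps, so the members had the highest share of the 4 sets. The share without an overlapping gene was 55.6%, 16.1% and 22.3% in the same 3 sets.

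The genes around the members that lay whole inside 1 gene were long. There were 68 such host genes, with a median length of 296.8 kb (78.8 to 1998 kb), where the median over all 20661 autosomal protein-coding genes was 17.5 kb. A gene has to be longer than the member to hold it, so long hosts are partly set by the definition. The 10 longest were Macrod2 (1998 kb, an enzyme that removes ADP-ribose from proteins), Rbfox1 (a neuronal splicing factor), Magi2 (a synaptic scaffold), Tenm3 (a teneurin of neuronal wiring), Lrmda, Wwox (an oxidoreductase at a fragile site), Spag16 (a protein of the sperm axoneme), Pcdh9 (a protocadherin), Erc2 (a protein of the presynaptic active zone) and Alk (736 kb, a receptor tyrosine kinase). Of the hosts, 5 held 2 members each: Magi2, Tenm3, Pcdh9, Enox1 and Adgrv1, the last being a very large adhesion receptor of the inner ear.

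The place of a member in its host was described where the strand allowed it. Strand was known for 57 hosts, and the start site of 46 (80.7%) lay outside LADs. For hosts of 200 kb or more it was 32 of 43 (74.4%), beside 404 of 707 (57.1%) for all genes of that length. A member that lies whole inside a gene cannot cover its outer start, so hosts were chosen in a way that raises this share, and nothing is read from the difference. Over 62 pairs of member and host with a strand, the midpoint of the member lay at 48.3% of the gene's length from its start in the median, with 12 pairs in the part before 33.3%, 36 between 33.3% and 66.7%, and 14 after it. A member nearly as long as its host can only lie near the middle, which adds to the central count. The gap from the host's start to the member had a median of 102.1 kb and a lowest value of 1.52 kb, and 9 members held an annotated start of their host. LADs covered a median of 41.3% of a host. The member was the only LAD to touch 48 of the 68 hosts, and 7 hosts were touched by 3 or more LADs.

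Single hosts show the range. In Macrod2 the member of 167.5 kb lay 939 kb from the start, in a gene of which 80.9% was in 4 LADs and whose start was in a LAD too. In Pcdh9 the start was outside LADs, 17.3% of the gene was in LADs, and its 2 members of 60 and 92.5 kb were the only LADs in it, 87.5 kb apart. Rgs6, a regulator of G-protein signalling, had 1 member of 90.0 kb (chr12:82717483-82807481) with the nearest LAD 4677 kb away. Among the other hosts stood Rarb, a retinoic acid receptor (a member of 182.5 kb in a gene of 651 kb), Flt1, a receptor of vascular growth factor (67.5 kb in 165 kb), and Erg, a factor of endothelial cells (140.0 kb in 227 kb); these 3 were picked after their values were seen.

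**Figure D4:**
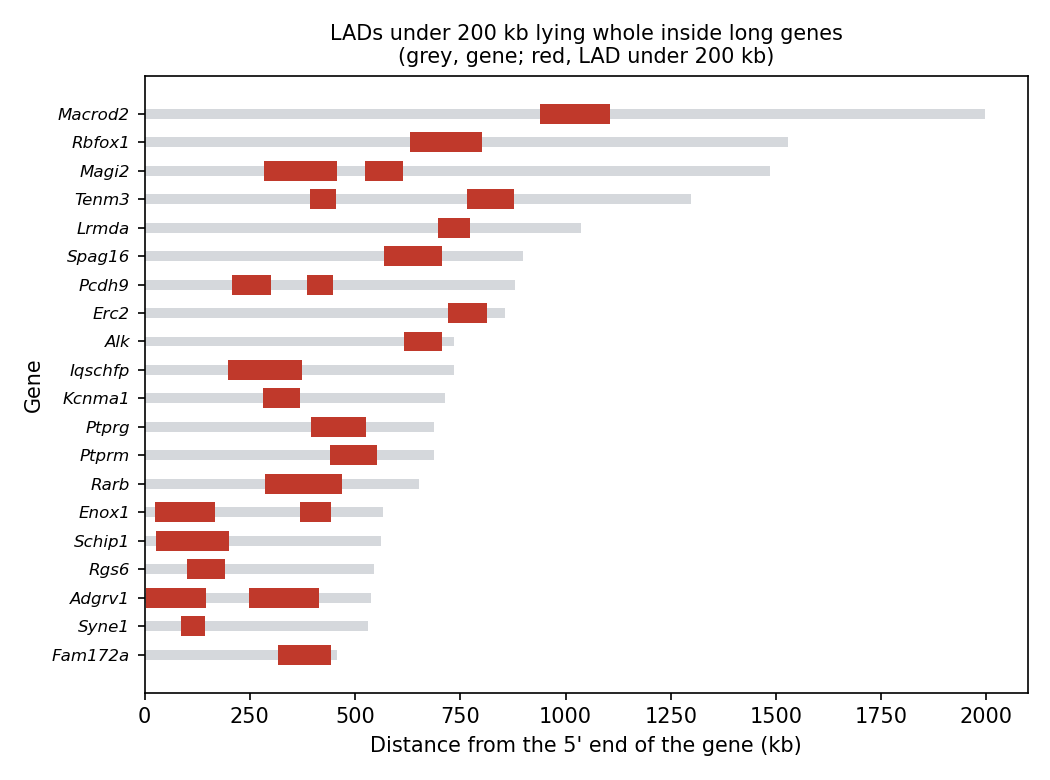
The longest host genes with a known strand as grey bars from the 5′ end (left) to the 3′ end, in kb, with members in red. The member in Macrod2 begins 939 kb from the 5′ end; in Adgrv1 a member begins next to the 5′ end.

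The members with most genes were mainly receptor clusters. On chromosome 6, 116486779 to 116606778 (120.0 kb) held Olfr211, Olfr212, Olfr213, Olfr214 and Olfr215, and 66566937 to 66721936 held Vmn1r33 to Vmn1r36. On chromosome 7, 13070086 to 13255085 held Vmn1r85 to Vmn1r89. On chromosome 11, 49405518 to 49493016 held Olfr1386, Olfr1387, Olfr1388 and Olfr1389, with the nearest LAD 672.5 kb away. On chromosome 19, 12628551 to 12721050 held Olfr1442 and Olfr1443 beside Glyat and Keg1, acyltransferases of liver and kidney. Olfactory and vomeronasal receptors, which detect odours and pheromones in sensory neurons of the nose, came to 28 of the 171 genes (16.4%), against 27.9% of the genes in longer LADs.

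Several members held part of a muscle, bone or immune gene cluster; these and the regulators named next were chosen after the values were seen. The member chr11:67202961-67297960 (95 kb) held Myh1, Myh4 and Myh8, myosin heavy chains of fast and perinatal skeletal muscle, while Myh2, Myh13 and Myh3 of the same cluster lay 5.44, 29.1 and 100.7 kb outside it and in no LAD. The member chr5:104131983-104314481 (182.5 kb) held Dspp, Dmp1 and Ibsp, secreted matrix proteins of dentin and bone, while their relatives Mepe and Spp1 lay 10.8 and 120.6 kb outside and in no LAD. On chromosome 6, 128604241 to 128729239 held Klrb1a, Klrb1 and Clec2h, lectin-like genes of the natural killer cell cluster. On chromosome 13, 100173025 to 100340523 held the midpoints of Naip2, Naip5 and Naip6, sensors of bacterial proteins; these are near-identical copies, and how reads with several matches were handled is not given in the sources used here. Other members held Myl1, a light chain of skeletal muscle myosin (chr1:66899790-66959788), and Actc1, cardiac actin, together with Gjd2, a connexin of neurons (chr2:113884551-114067049).

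Of the genes in short LADs, 3 factors that set cell fate in the embryo are named here. They come from no fixed list, so their number is no trait of the members. Foxa2 was the only protein-coding gene with its midpoint in chr2:147951943-148056942 (105.0 kb, nearest LAD 227.5 kb). Ptf1a, a factor of pancreas and of inhibitory neurons, was the only one in chr2:19432350-19504849 (72.5 kb, nearest LAD 195.0 kb). Neurog2, which starts neuron formation, shared chr3:127628207-127725705 (97.5 kb, nearest LAD 95 kb) with Alpk1, a kinase that senses bacterial sugars. Of 166 homeobox, forkhead and related factor genes, 25 lay in autosomal LADs and 1 of these, Foxa2, in a member, which is near the share over all protein-coding genes in LADs (3.62%). That family does not include Ptf1a or Neurog2, for whose kind no share was counted.

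Of all 4720 protein-coding genes in autosomal LADs, 171 (3.62%) were in members, and the counts by family are to be read against that share. Of 20 families, 8 had a gene in a member. Olfactory receptors had 17 genes in 6 members (976 in all autosomal LADs), vomeronasal receptors 11 in 4 members (323), and zinc finger genes 6 (103): Zfp536, Zfp729a, Zfp583, Zfp667, Zfp738 and Zfp825, one more than the naming rule gives. Solute carriers had 3 (43 in LADs), Slc39a12, Slc28a2 and Slc28a2b, and lectin receptors 3 (47). Potassium channels had Kcnma1 and cadherins Pcdh9. The 12 families with 0 genes in a member included serpins (35 in LADs), P450 enzymes (52), keratins (24), metalloproteases (31), glutamate and GABA receptors (27), synaptic adhesion genes (27), axon guidance genes (15) and collagens (9), and at 3.62% few or no genes of families of this size would fall in members. Of 24 genes of fibroblasts and of general use, such as Col1a1, Vim, Thy1 and Actb, 0 lay in a member and 1, Fap, in any LAD. Over all 20661 autosomal protein-coding genes, 171 lay in members and 4720 in LADs, so 0 of 24 in members is no result about these genes. Among genes that encode no protein, members held 151 of the 3449 lncRNA genes in autosomal LADs (4.38%), 121 of 4483 pseudogenes (2.70%), 18 of 365 snRNA genes (4.93%), 15 of 601 snoRNA genes (2.5%) and 1 of 27 tRNA genes (3.70%), which is near the share of protein-coding genes.

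Promoters in short LADs were poor in CG, close to those of longer LADs. The table gave 139 starts of 117 genes in members. Over 300 bases, from 250 before to 50 after the start, the median GC content was 49.0%, with a median of 4 CG. In longer LADs (4182 starts) it was 45.0% and 3, and outside LADs (15763 starts) 59% and 17. Promoters with a GC content of at least 50% and an observed to expected CG ratio of at least 0.6 made up 13.7% of starts in members (19), 15.2% in longer LADs and 55.1% outside. Without the receptor genes the shares in LADs were 16.5% and 20.7%. The letters TATAAA occurred on either strand in 16.5% of starts in members, 26.1% in longer LADs, 9.14% outside LADs and 12.7% of all autosomal starts of the same length. Of the promoters printed above, that of Foxa2 had 23 CG in this window and is 1 of 3 starts listed for the gene (the others had 13 and 12), and that of Myh4 had 1.

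The 19 CG-rich starts belonged to 18 genes, among them Foxa2, Ptf1a, Gjd2, Rxrg (a retinoid receptor), Ccl21b (a chemokine of lymph nodes, 45 CG), Zbtb44, Btg3, Cyfip2, Ufm1 and Kyat3. They lay at a median of 13.3 kb from the nearer border of the member (4.33 to 72.1 kb), and 7 were within 10 kb. The other 120 starts lay at a median of 24.4 kb (0.402 to 87.3 kb), with 18 within 10 kb. The range of the CG-rich starts lay inside that of the other starts, and the difference between the medians was not tested.

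**Figure D5:**
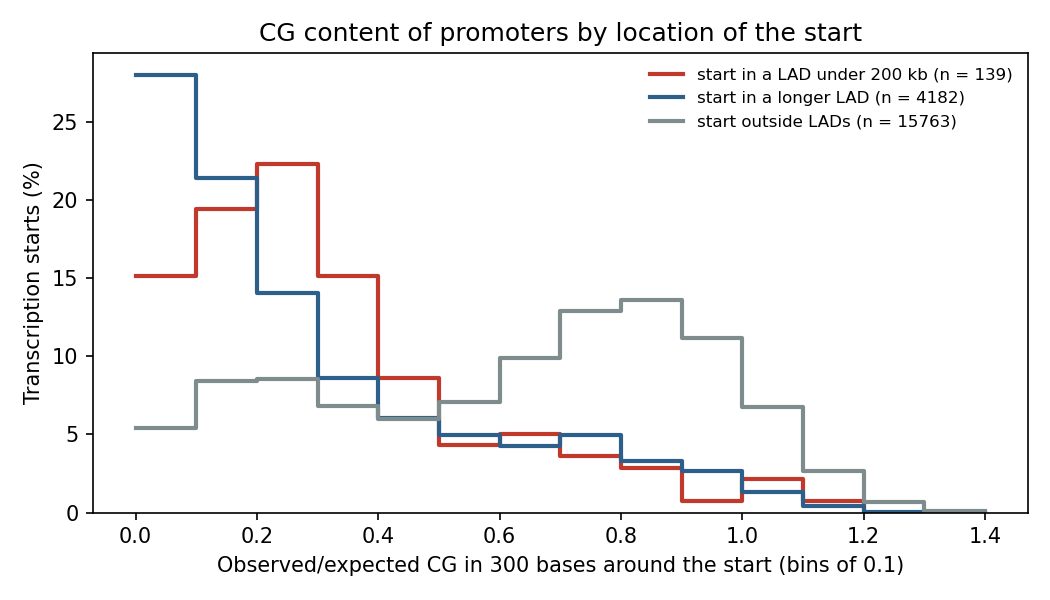
Observed to expected CG ratio in the 300 bases around each start (horizontal axis, bins of 0.1) against the percentage of starts, for starts in members, in longer LADs and outside LADs. The median ratio is 0.275 in members, 0.203 in longer LADs and 0.681 outside LADs.

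The most isolated members were spread over 5 chromosomes. The member chr2:3022402-3067401 (45.0 kb) is the first in its chromosome's list and had its nearest LAD 7360 kb away. After it came the member in Rgs6, then chr6:32009547-32099545 with 1700012A03Rik (3545 kb), and chr5:138301875-138424373 with Pvrig, a receptor of lymphocytes, in surroundings of 31.5 genes per Mb (2470 kb). The last was chr7:142797176-142849674 (1992 kb), the last LAD in the list of chromosome 7, whose border lay 130.4 kb from the imprinted growth factor gene Igf2, itself outside LADs.

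Chromosomes differed in how many short LADs they had and in what these held. The density was 0.132 ± 0.0348 members per Mb (SD, n = 19 chromosomes), lowest on chromosome 15 (0.0602, 6 members) and highest on chromosome 18 (0.194, 17 members). The largest number was 25, on chromosome 3. On chromosome 18 members made up 36.2% of the LADs and held 0.608 genes per Mb, with 94.1% of them without a gene midpoint. On chromosome 7 they made up 17.9% of the LADs and held 14.5 genes per Mb, with 25% without one. On chromosome 14, 61.1% of members lay inside 1 gene, among them the pairs in Pcdh9 and Enox1, where the mean over chromosomes was 23.6 ± 11.4% (SD, n = 19).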

How the data were processed

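The only data used were 1 list of Lamin B1 domains in BED format. The deposited columns are start and end positions, and the deposited score was 0 in every line, so no signal or p-value was available. That the list is merged and from wild type cells stands only in its name. Bowtie2 and the build mm10 were used, per the submitters' processing notes, which give no version. The domain caller, its threshold and the use of IgG are not given in the sources used here.

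Members were counted in Python 3.11.15 with numpy 2.4.6, pandas 2.3.3 and matplotlib 3.10.9, and intervals with scipy 1.17.1. A gene lies in a domain if its midpoint does. Genes (20661 protein-coding on the autosomes), promoters (20084 starts of 16456 genes) and microRNAs came from RefSeq tables of GRCm38.p6; genes without a promoter there have no strand. Surroundings were 1 Mb on each side. The counting functions were tested on simulated data, where all 20 simulated lists gave the planted answers. The members, gene lists and comparisons were chosen with earlier results of these data known.

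Named by rule were the 3 shortest members, those next to the threshold, the 5 with most genes, the 5 most isolated, the longest runs, the 10 longest host genes and those holding 2 members, up to 5 genes a family, and 8 mature microRNAs. Other named genes were chosen after their values were seen. Alternatives tried were other lengths, a minimum length, joined domains, other gene rules, windows and gene sets.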

Additional observations from a re-analysis of the deposited data

How the results depend on the processing

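Of 66 values recomputed under alternatives, 51 stayed within the 95% interval of the value reported (the number of members, which has none, within 1.5 times of it), 14 moved out of it and 1 reversed. The intervals treat the members or their genes as independent and, for differences, hold the value of longer LADs fixed. They serve only as a yardstick for a move and are no replicate error. The number of members was 176 under 100 kb and 77 with domains up to 250 kb apart joined first. The share of members without a protein-coding gene was 81.9% for genes lying whole inside, 74.8% by start site, 42.3% by any overlap, 68.2% for members under 100 kb and 27.4% with all annotated genes. Genes per Mb inside were 2.71 for whole genes, 3.595 by start site and 4.36 without receptor genes. Against longer LADs, the difference in genes per Mb was 1.24 by midpoint, 0.368 by start site and -0.975 for whole genes; a whole gene needs more room than a midpoint, and start sites were known only for genes with a promoter in the table. Around the members, LAD coverage was 30.8% within 500 kb and 47.0% within 2 Mb, and the difference in median genes per Mb from longer LADs was -1.50 within 1 Mb and -0.750 within 2 Mb. The alternatives for differences from longer LADs were chosen after seeing the data.

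No paired analysis was possible because the list merges the Lamin B1 libraries; leaving out each library was not run for the same reason. Reads per domain are unknown, so a short LAD supported by few reads cannot be told from a well-supported one. Signal strength, the IgG background and differences between the iMEF lines were not analysed here.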

Other observations

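The lengths of short LADs clustered at a spacing of 30 kb, a pattern noticed after the values were seen. Of the 310 members, 148 (47.7%) were 0 to 5 kb longer than a multiple of 30 kb, where lengths spread evenly over the 2.5 kb steps would give 25%. Among LADs of 200 kb or more it was 378 of 818 (46.2%). The 1109 gaps between LADs showed the reverse side of it, with 542 (48.9%) at 0 to 5 kb below such a multiple. Lengths and gaps of both classes carry a step wider than 2.5 kb, and its part in the sharp number of members near 92.5 kb was not tested.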
